A study of Mus musculus with 6 samples.

Results

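The 10 genes described here brake MAP kinase signalling and were measured in sorted bone marrow cells labelled ST-HSC (short-term hematopoietic stem cells), progenitors with limited self-renewal. They are the dual-specificity phosphatase genes Dusp1, Dusp2, Dusp4, Dusp5, Dusp6 and Dusp10, the Sprouty genes Spry1 and Spry2, and the Sprouty-related genes Spred1 and Spred2. They were taken by symbol, which found 10 of 10 among the 53677 gene rows of the deposited table. The 3 dnTCF4 samples came from mice with the genotype label dnTCF4+/+, which express a dominant-negative form of the transcription factor TCF4, and the 3 WT samples from mice labelled dnTCF4-/-. All 6 samples are of the C57BL/6J strain and were sorted by absence of lineage markers and CD150 and presence of Kit and CD48, a gate that does not name Sca-1. The labels state neither the animals' age nor the promoter or cell type that drives the transgene. Since the series text names 3 mice per genotype, each library was taken as 1 animal. Values are RPKM, reads per kilobase of gene length, scaled by the library's total.

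MAP kinases are the last step of relays that carry signals from growth factor receptors, through Ras and RAF, to ERK, and from stress and cytokine receptors to JNK and p38. Dual-specificity phosphatases of this class (MKPs) remove the activating phosphates from a MAP kinase, and many of their genes are themselves switched on by the kinases they turn off. Sprouty and Spred proteins act higher up, between the receptor and RAF, and in blood progenitors they are known as restraints on signalling from receptors such as KIT.

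None of the 8 genes that could be tested passed the test between the genotypes, and Dusp1 was the one of the 10 whose dnTCF4 values lay apart from its WT values. Testing required that a gene's 6 libraries average 1 RPKM or more. This was met by 8 of the 10 genes, each of which also averaged at least 1 RPKM in dnTCF4 and in WT alone, and was missed by Dusp4 and Spry1. With limma on log2(RPKM + 1) and adjustment over all 11326 genes tested, 0 of the 8 passed an adjusted p of 0.05, against 34 of all genes tested (0.300%). At an unadjusted p under 0.05, limma gave 1 of the 8, Dusp1, against 1090 of all genes (9.62%), and 0 of the 8 passed with voom on reads recovered from the values after adjustment. The 3 dnTCF4 values lay wholly above the 3 WT values for 1 of the 8 genes, against 15.4% of all genes tested, and wholly below them for 0, against 2.26%. After the libraries were rescaled by median ratios, Dusp1 still had separate groups, with dnTCF4 higher, as did 5.54% of the genes then tested. In sorted bulk samples, fewer cells that carry a transcript and less of it per cell cannot be told apart.

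Most of the 8 genes, like most of the genes tested, averaged higher in dnTCF4 on the deposited scale. Of the 8, 7 had a higher mean log2 value in dnTCF4, as did 68.5% of all genes tested, and their median log2 difference (dnTCF4 minus WT) was 0.21, against 0.14 over all genes tested. Median ratio scaling moved these medians to 0.06 for the 8 genes and -0.04 for all genes, with 5 of the 8, and 43.6% of all genes, higher in dnTCF4. Immunoglobulin transcripts, which took 0.702% to 1.48% of counted reads in dnTCF4 and 6.94% to 14.3% in WT, bear on this scale, since RPKM divides every gene by the library's total. With those genes left out the medians were 0.13 and 0.04. Relative to the median of all genes as deposited, the log2 difference was 0.88 for Dusp1, 0.33 for Dusp2, 0.18 for Spred2 and 0.13 for Spred1. On the same relative scale it was 0.03 for Dusp5, -0.01 for Spry2, -0.03 for Dusp6 and -0.30 for Dusp10.

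**Figure D1:**
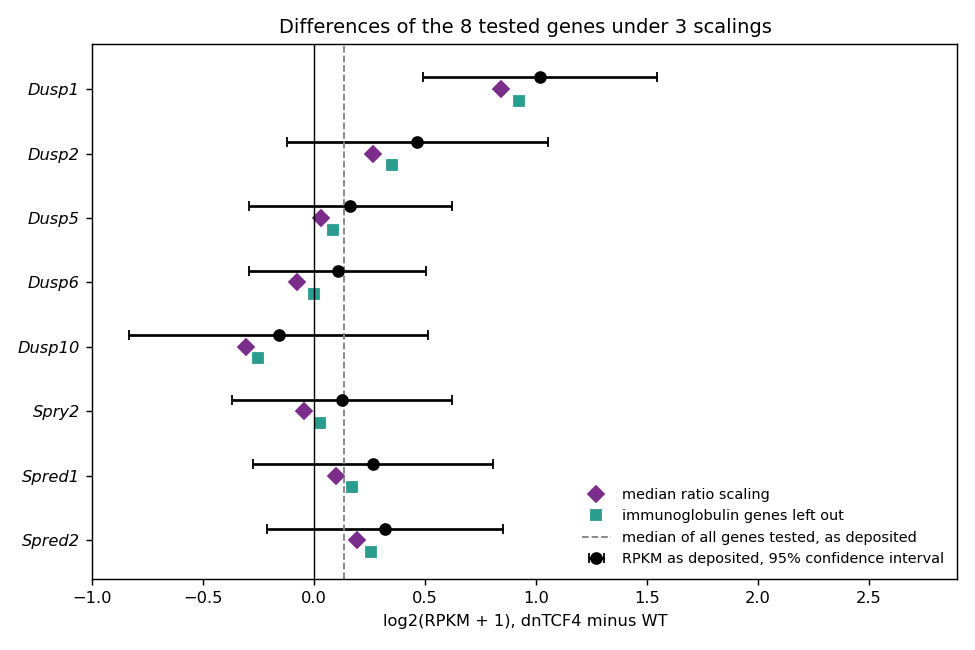
Log2 difference of log2(RPKM + 1), dnTCF4 minus WT, for the 8 tested genes. Black points are the values as deposited with their 95% confidence interval (n = 3 libraries per genotype), purple diamonds follow median ratio scaling, green squares leave out the immunoglobulin genes, and the dashed line is the median of all genes tested (0.14). The interval of Dusp1 (0.49 to 1.55) lies above 0 and those of the other 7 genes span it.

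The libraries held 57400000 to 110900000 counted reads in dnTCF4 and 61800000 to 67700000 in WT, as recovered from the values. Transcripts of the gate were present: Kit was at 74.8, 97.1 and 35.5 RPKM in dnTCF4 replicates 1, 2 and 3 and at 47.3, 83.7 and 61.7 RPKM in WT. Cd48 was at 1169, 1000 and 1415 RPKM in dnTCF4 and at 994, 813 and 895 RPKM in WT, without overlap (log2 difference 0.40, limma adjusted p = 0.57). Of 6 gate genes tested, 2 had dnTCF4 wholly higher, against 15.4% of all genes tested. Slamf1, which encodes CD150, stayed at 1.18 RPKM or less in dnTCF4 and 1.15 or less in WT. Tcf7l2, which encodes TCF4, was at 2.15, 1.99 and 2.80 RPKM in dnTCF4 and 1.56, 1.29 and 1.69 in WT (log2 difference 0.39, limma adjusted p = 0.52). The labels do not say how much of the gene the transgene holds, so these reads are a limited check of genotype. Reads of Ddx3y, a Y-linked gene, came from replicate 1 of dnTCF4 and of WT and from no other library.

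By mean over the 6 libraries, levels per length ran from Dusp2 (10.8 RPKM) through Dusp1 (4.89), Dusp6 (4.75), Spry2 (3.49), Spred1 (3.36), Dusp10 (2.42), Dusp5 (1.58) and Spred2 (1.37) to Spry1 (0.324) and Dusp4 (0.0168). Most neighbours in this order were not separated by their spread over libraries. The ranges over the 6 libraries were apart only between Spred2 and Spry1 and between Spry1 and Dusp4. Dusp1 lay above Dusp6 in 3 of 6 libraries, namely the 3 of dnTCF4, and Spry2 above Spred1 in 3 of 6. Dusp2 exceeded Dusp1, and Dusp6 exceeded Spry2, within 6 of 6 libraries although their ranges overlapped.

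**Figure D2:**
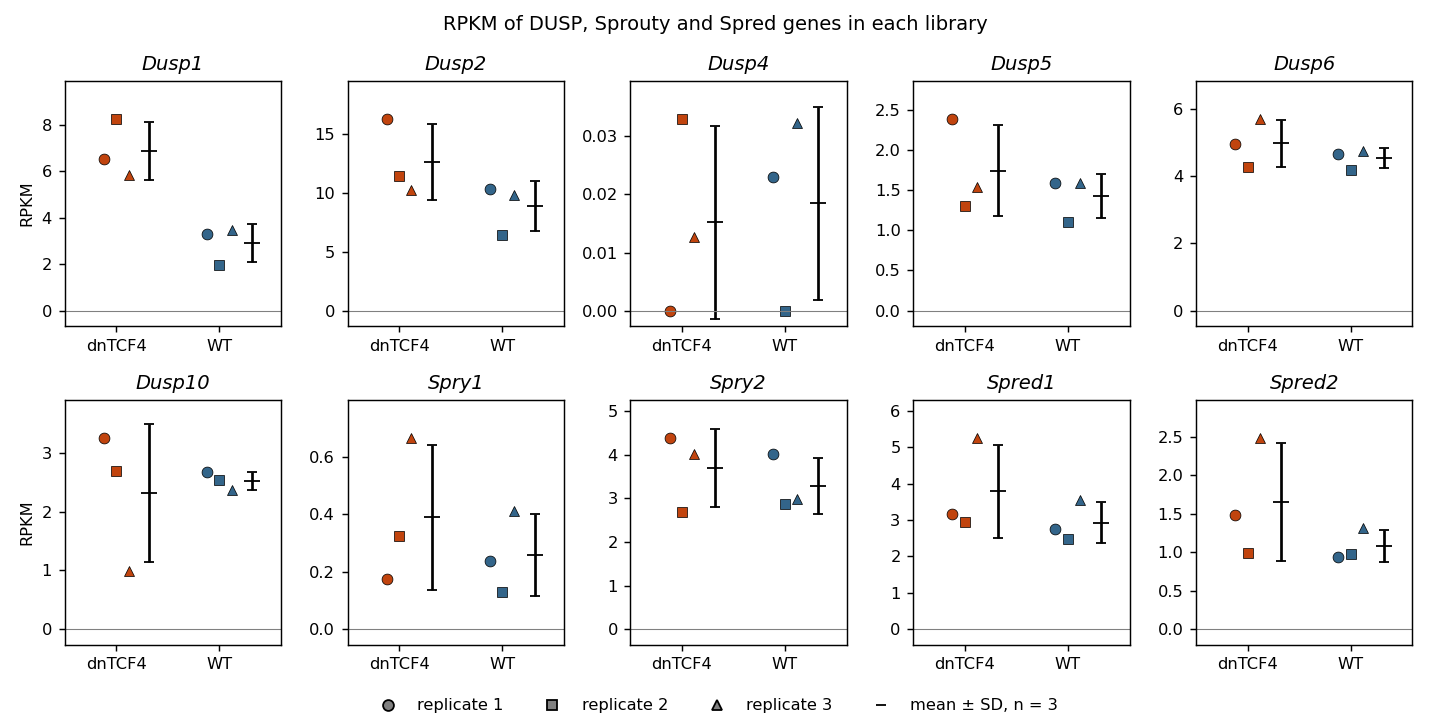
RPKM of each of the 10 genes in each library, dnTCF4 on the left and WT on the right of every panel, with the replicate number as symbol and bars for the mean ± SD (n = 3). Each panel has its own scale, so heights compare libraries and not genes. Dusp1 has its 3 dnTCF4 values (5.84 to 8.23) above its 3 WT values (1.97 to 3.48), and the other 9 genes overlap.

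Dusp1 (ENSMUSG00000024190.7, GRCm38 chromosome 17, 26505590 to 26562128, minus strand in GENCODE M21) encodes MKP-1, a nuclear phosphatase of p38, JNK and ERK that is transcribed within minutes of a stimulus. It was at 6.53, 8.23 and 5.84 RPKM in dnTCF4 replicates 1, 2 and 3, against 3.29, 1.97 and 3.48 RPKM in WT replicates 1, 2 and 3. The groups did not overlap: the lowest dnTCF4 library exceeded the highest WT library, and WT replicate 2 was the lowest of all. These values stood for 1110, 2460 and 904 reads in dnTCF4 and 564, 329 and 635 reads in WT. The mean was 6.86 ± 1.23 RPKM in dnTCF4 and 2.92 ± 0.820 RPKM in WT (SD, n = 3 each), a ratio of 2.35. Between libraries of the same number the ratio of dnTCF4 to WT was 1.98, 4.16 and 1.68. The log2 difference was 1.02 (SE 0.23, 95% confidence interval 0.49 to 1.55) and missed the limma threshold (unadjusted p = 0.0025, adjusted p = 0.17). The exact two-sided permutation p was 0.1, the smallest that 3 libraries against 3 allow. Among the 11326 genes tested it ranked 110 by log2 difference and 160 by p. Over 15 other settings the log2 difference lay between 0.83 and 1.27, and the limma adjusted p between 0.067 (library weights) and 0.59.

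The gene model of Dusp1 matters to its level. In GENCODE M21 its exons cover 3311 bases in 6 blocks, and with that length the deposited values did not come out as whole reads. Between 300 and 8000 bases, 2 lengths gave whole reads, 2697 and its multiple 5394. The shorter equals the merged GENCODE exons of the 2 blocks within 10 kb of the gene's 3′ end, and the read numbers above rest on it. The deposited RPKM and its ratios between genotypes do not rest on this fit. The level of Dusp1 against other genes depends on the length behind the deposited values. Of its overlapping genes, Ergic1 on the opposite strand shares 11 exonic bases and was at 5.28, 3.77 and 4.13 RPKM in dnTCF4 and 4.52, 6.22 and 7.28 in WT, with overlap.

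The promoters of the 3 most abundant phosphatase genes are shown because these genes set the mix of phosphatase transcripts, and their values run from separate groups for Dusp1 to nearly level ones for Dusp6. Each run is the first 200 bases of the 250 searched before the RefSeq start, ending at position -51, read 5′ to 3′ on the gene's strand from GRCm38.p6, with capitals at the motif matches described next. RefSeq promoters were found for 9 of the 10 genes, and Dusp4 was not matched.
Dusp1, minus strand, chr17:26508523-26508722: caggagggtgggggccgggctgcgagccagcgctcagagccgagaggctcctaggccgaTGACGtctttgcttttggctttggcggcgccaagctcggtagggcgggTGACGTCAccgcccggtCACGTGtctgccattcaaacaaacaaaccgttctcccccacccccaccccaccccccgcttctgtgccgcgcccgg
Dusp2, plus strand, chr2:127335909-127336108: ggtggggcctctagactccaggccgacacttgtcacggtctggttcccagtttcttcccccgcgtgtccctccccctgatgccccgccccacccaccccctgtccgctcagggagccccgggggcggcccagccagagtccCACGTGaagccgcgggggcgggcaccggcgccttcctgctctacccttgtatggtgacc
Dusp6, plus strand, chr10:99262981-99263180: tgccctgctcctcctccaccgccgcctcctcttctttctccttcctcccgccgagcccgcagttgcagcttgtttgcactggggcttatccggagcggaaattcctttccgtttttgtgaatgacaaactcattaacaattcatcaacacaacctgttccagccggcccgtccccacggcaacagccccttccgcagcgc

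The searches, on both strands, covered sites of factors that act at the end of these relays or that bear on the transgene. The cyclic AMP response element TGACGTCA, the site of CREB and ATF factors, was found in Dusp1 alone of the 9 promoters, at position -143 from the start, and in 1.62% of 27025 promoters of the same length. Its shorter core TGACG, which the whole element contains on both strands, was found in Dusp1 (-191, -143 and -140), Dusp5 (-55) and Spred2 (-51), and in 17.9% of all promoters. The E-box CACGTG was found in Dusp1 (-126) and Dusp2 (-109), and in 6.05% of all promoters. The CArG box, bound by serum response factor, occurred in Dusp5 at -82 and -72, side by side, and in 1.40% of all promoters. No match was found in the 9 windows for AP-1 (TGACTCA or TGAGTCA, 4.43% of all promoters), the ETS sequence CCGGAAG (7.05%), or the TCF/LEF cores CTTTGAA (4.64%) and CTTTGAT (3.23%). Dusp6 thus stands without capitals. Other forms of the ETS site were not searched. The shares over all promoters are not matched for base composition. The GC content was 68.4% in the Dusp1 window and 56.0% to 70.8% over the 9 windows, against a median of 52.0% in the promoters searched. A match describes letters in the window and does not show that a factor binds there.

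Among the other nuclear phosphatases, Dusp2 (chromosome 2, 127336159 to 127338376), known as PAC-1 and typical of activated blood cells, was the most abundant of the 10. It was at 16.3, 11.4 and 10.2 RPKM in dnTCF4 replicates 1, 2 and 3, against 10.3, 6.45 and 9.85 RPKM in WT. The groups overlapped, since dnTCF4 replicate 3 lay just under WT replicate 1, and WT replicate 2 was the lowest here too. Each dnTCF4 library exceeded the WT library of the same number, by ratios of 1.57, 1.77 and 1.04. Mean levels were 12.6 ± 3.20 RPKM in dnTCF4 and 8.88 ± 2.11 RPKM in WT (SD, n = 3 each). The log2 difference of 0.47 (SE 0.25, 95% confidence interval -0.12 to 1.05) did not pass (limma adjusted p = 0.61), and the exact permutation p was 0.2.

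Dusp5 (chromosome 19, 53529109 to 53542431), an ERK-specific phosphatase of the nucleus, was at 2.38, 1.31 and 1.54 RPKM in dnTCF4 and at 1.59, 1.11 and 1.58 RPKM in WT. Only dnTCF4 replicate 1 lay above the range of the WT libraries. The log2 difference was 0.16 (SE 0.20, 95% confidence interval -0.30 to 0.62, limma adjusted p = 0.75). An antisense gene shares 547 exonic bases with Dusp5, and because the library chemistry does not mark strand, reads of the pair cannot be told apart. Dusp4 (chromosome 8, 34807297 to 34819894), encoding MKP-2, a nuclear relative of MKP-1, was scarcely read. It had 0, 10 and 2 reads in dnTCF4 and 4, 0 and 6 reads in WT, or at most 0.0329 RPKM in dnTCF4 and 0.0323 RPKM in WT. Where the count was 0, in dnTCF4 replicate 1 and WT replicate 2, a limit of 3 reads allows up to 0.0174 and 0.0177 RPKM. These limits cover counting error only.

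Dusp6 (chromosome 10, 99263231 to 99267489) encodes MKP-3, a cytoplasmic phosphatase specific for ERK, and its transcript is widely used as a readout of ERK activity. It was at 4.94, 4.28 and 5.69 RPKM in dnTCF4, against 4.66, 4.19 and 4.73 RPKM in WT. The 6 values lay close together and overlapped, with each dnTCF4 library slightly above its numbered WT partner. The log2 difference was 0.11 (SE 0.17, 95% confidence interval -0.29 to 0.50, limma adjusted p = 0.80), and under median ratio scaling it was -0.08. Dusp10 (chromosome 1, 184013302 to 184075636), encoding MKP-5, which acts on JNK and p38, was at 3.26, 2.69 and 0.997 RPKM in dnTCF4 and at 2.67, 2.54 and 2.37 RPKM in WT. A single library set its mean difference: dnTCF4 replicate 3 held the lowest value, while dnTCF4 replicates 1 and 2 lay above all 3 WT libraries. The log2 difference was -0.16 with all libraries (SE 0.29, 95% confidence interval -0.84 to 0.51, limma adjusted p = 0.82). Without dnTCF4 replicate 3 it was 0.17 (limma adjusted p = 0.93).

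The mix of phosphatase transcripts within a library does not depend on how libraries are scaled, so it was set out as shares of the summed RPKM of the 6 Dusp genes. Dusp1 made up 19.6%, 29.4% and 24.1% of this sum in dnTCF4 and 14.6%, 12.1% and 15.8% in WT, with no overlap. Dusp10 made up 9.76%, 9.61% and 4.10% in dnTCF4 and 11.8%, 15.6% and 10.7% in WT, lower in dnTCF4 and again with no overlap. For both shares the exact two-sided permutation p was 0.1, the smallest possible. Dusp2 kept the largest share in each of the 6 libraries, 40.9% to 48.7% in dnTCF4 and 39.6% to 45.8% in WT (exact permutation p = 0.9). Dusp6 held 14.8%, 15.3% and 23.4% in dnTCF4 and 20.6%, 25.8% and 21.5% in WT (exact permutation p = 0.3). Shares of one sum move against each other, so a larger share of Dusp1 lowers the rest. The lower Dusp10 share is therefore not a result apart from that of Dusp1. The RPKM of Dusp10 overlapped between the genotypes, with dnTCF4 replicates 1 and 2 above the WT libraries.

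Ratios of Dusp1 to Dusp6 and Dusp2 restate the Dusp1 difference within each library and are not further evidence for it. Dusp1 stood to Dusp6 at 1.32, 1.92 and 1.03 in dnTCF4 and at 0.707, 0.471 and 0.734 in WT, above 1 in the dnTCF4 libraries and below 1 in the WT libraries (exact permutation p = 0.1). The side of 1 depends on the gene length used for Dusp1, while the separation of the groups does not. Dusp1 stood to Dusp2 at 0.401, 0.719 and 0.572 in dnTCF4 and at 0.319, 0.306 and 0.353 in WT (exact permutation p = 0.1). The summed level of the 6 Dusp genes was 33.4, 28.0 and 24.3 RPKM in dnTCF4, against 22.6, 16.3 and 22.0 RPKM in WT (exact permutation p = 0.1). Its mean was 28.5 ± 4.57 RPKM in dnTCF4 and 20.3 ± 3.49 RPKM in WT (SD, n = 3 each). Dusp1 and Dusp2, the most abundant pair by mean over the 6 libraries, carry most of this sum, although Dusp6 exceeded Dusp1 in the WT libraries. After median ratio scaling the sum was 31.9, 26.8 and 21.2 in dnTCF4 and 27.0, 17.6 and 21.3 in WT, with overlap (exact permutation p = 0.5).

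**Figure D3:**
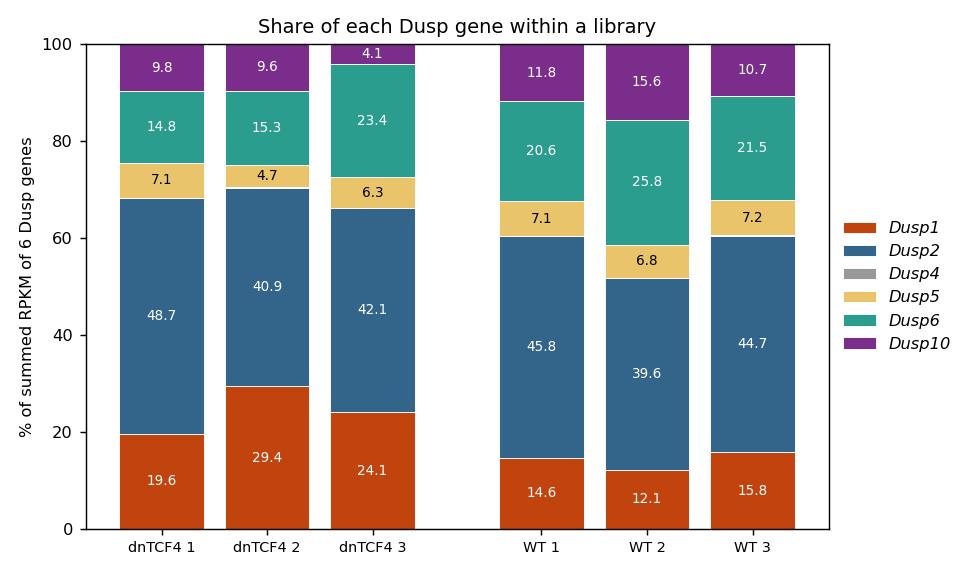
Share of each Dusp gene in the summed RPKM of the 6 Dusp genes, in percent, as 1 stacked bar per library with dnTCF4 at the left and WT at the right. The Dusp1 segment at the base is 19.6% to 29.4% in dnTCF4 and 12.1% to 15.8% in WT, while Dusp2 above it is the largest segment in every library and Dusp4 is too small to see.

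Of the inhibitors above RAF, Spry2 (chromosome 14, 105891947 to 105896819), a feedback inhibitor induced by growth factors, was at 4.38, 2.69 and 4.02 RPKM in dnTCF4 and at 4.01, 2.86 and 2.97 RPKM in WT. The groups overlapped across nearly their whole range. Its log2 difference was 0.12 (SE 0.21, 95% confidence interval -0.37 to 0.62, limma adjusted p = 0.81), and -0.05 under median ratio scaling. Spry1 (chromosome 3, 37639947 to 37644598), its close relative, was low, with 0.175, 0.326 and 0.666 RPKM in dnTCF4 and 0.238, 0.128 and 0.412 RPKM in WT. Its groups overlapped and it was not tested. It shares 710 exonic bases with Gm42922 on the opposite strand, which was at 0.015 RPKM or less.

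Spred1 (chromosome 2, 117121374 to 117182279) encodes a membrane-bound inhibitor that brings neurofibromin, which switches Ras off, to the membrane. It was at 3.16, 2.95 and 5.26 RPKM in dnTCF4 and at 2.74, 2.48 and 3.56 RPKM in WT. Spred2 (chromosome 11, 19924375 to 20024026), a related inhibitor of the Ras to ERK relay, was at 1.49, 0.986 and 2.49 RPKM in dnTCF4 and at 0.941, 0.978 and 1.31 RPKM in WT. For both genes replicate 3 was the highest library within each genotype, each dnTCF4 library exceeded the WT library of the same number, and the groups overlapped. The log2 difference was 0.26 for Spred1 (SE 0.23, 95% confidence interval -0.28 to 0.80, limma adjusted p = 0.71). For Spred2 it was 0.32 (SE 0.23, 95% confidence interval -0.21 to 0.85, limma adjusted p = 0.69). Without dnTCF4 replicate 3 the differences were 0.06 for Spred1 and 0.10 for Spred2. The 4 Sprouty and Spred genes summed to 9.20, 6.95 and 12.4 RPKM in dnTCF4 and 7.93, 6.45 and 8.26 RPKM in WT (exact permutation p = 0.4).

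**Figure D4:**
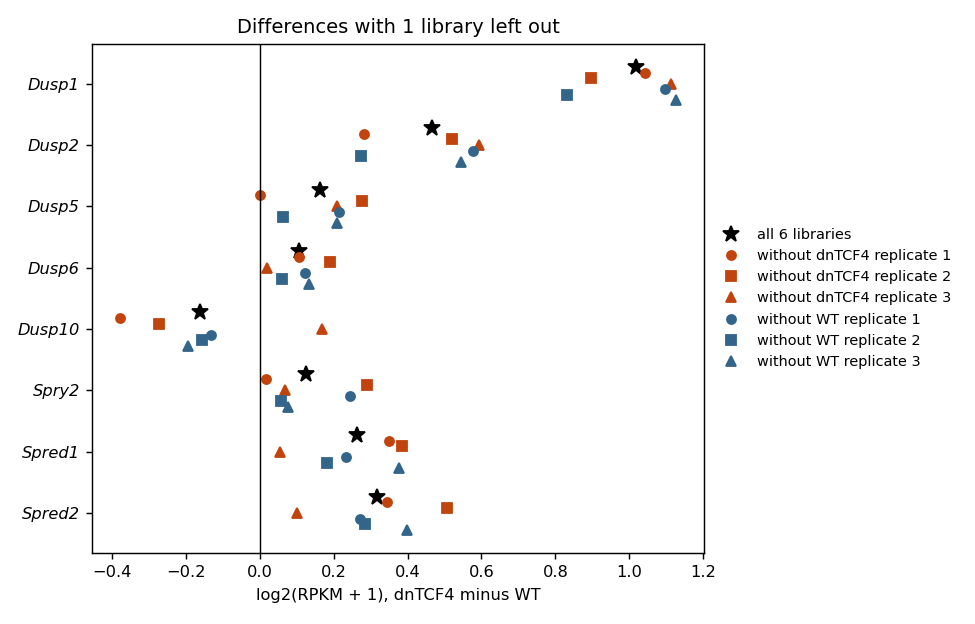
Log2 difference of log2(RPKM + 1), dnTCF4 minus WT, for the 8 tested genes with all 6 libraries (star) and with 1 library left out (orange for dnTCF4, blue for WT, replicate number by symbol). Dusp1 stays between 0.83 and 1.13, and Dusp10 ranges from -0.38 to 0.17, crossing 0 without dnTCF4 replicate 3.

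The highest and lowest values of the 10 genes were spread unevenly over the libraries. WT replicate 2 had the lowest value for 7 of the 10, tied with dnTCF4 replicate 1 at 0 for Dusp4, and no WT library had the highest value for any. The highest value lay in dnTCF4 replicate 1 for 4 genes, in replicate 3 for 4 (Dusp6, Spry1, Spred1 and Spred2) and in replicate 2 for Dusp1 and Dusp4. On this scale 68.5% of all genes tested had higher values in dnTCF4. The factors of median ratio scaling were 0.83, 0.92 and 1.03 in WT and 1.05, 1.05 and 1.15 in dnTCF4. The same counts over all genes were not made, so these extremes are not shown to be particular to the 10 genes. Over the 6 libraries, Pearson correlations of log2(RPKM + 1) were 0.95 between Spred1 and Spred2, 0.91 and 0.94 between Dusp6 and these genes, and 0.88 between Dusp2 and Dusp5. Dusp10 was correlated with Spred1 at -0.86, and Dusp1 with Dusp10 at -0.08. dnTCF4 replicate 3 holds the highest or the lowest value of Dusp6, Dusp10, Spred1 and Spred2. These correlations describe 6 libraries that share their scaling and their genotype groups.

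**Figure D5:**
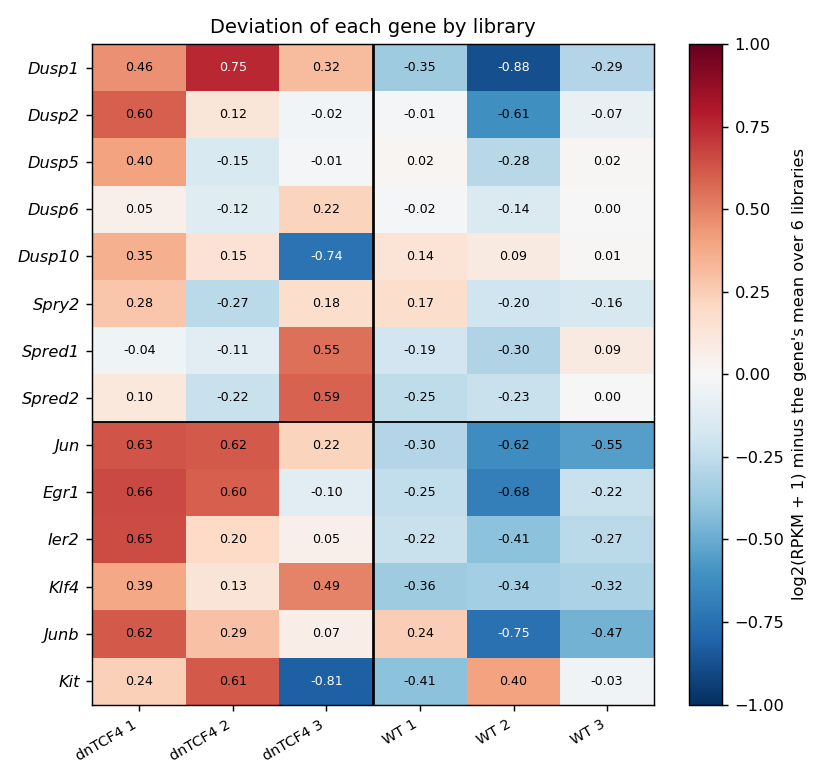
Deviation of log2(RPKM + 1) from the gene's mean over 6 libraries, with dnTCF4 libraries left of the line and WT libraries right of it. Rows above the horizontal line are the 8 tested brakes. Rows below it are 5 immediate early genes, picked among the smallest p of their lists, and Kit. The Dusp1 row is positive in the 3 dnTCF4 libraries (0.32 to 0.75) and negative in the 3 WT libraries, as are Jun, Klf4 and Ier2, while Spred1 and Spred2 are highest in dnTCF4 replicate 3 and Dusp10 and Kit lowest there.

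The 7 remaining MKP, Sprouty and Spred genes were low or close between genotypes. Dusp7, a cytoplasmic ERK phosphatase, was the 1 of 7 that reached the mean for testing, with 2.79, 1.30 and 1.73 RPKM in dnTCF4 and 1.68, 1.94 and 1.79 in WT (log2 difference 0.04, limma adjusted p = 0.94). Dusp9 was read at 0.134, 0.119 and 0.243 RPKM in dnTCF4 and 0.0174, 0.0357 and 0.0434 in WT, without overlap and untested. Spry4 lay the other way, at 0.131, 0.0767 and 0.129 RPKM in dnTCF4 and 0.141, 0.148 and 0.158 in WT. Dusp16 was at 0.762 RPKM or less, Spred3 at 0.329 or less and Dusp8 at 0.0259 or less in any library, and Spry3 was listed at 0 in the 6 libraries. Of 14 atypical dual-specificity phosphatases, which mostly do not act as MAP kinase phosphatases, 7 were tested, 0 passed limma and 7 had higher values in dnTCF4 (median log2 difference 0.20), or 5 of 7 after median ratio scaling. For 3 of these 7 (Dusp23, Dusp3 and Dusp19) the dnTCF4 values lay wholly above the WT values, against 15.4% of all genes tested. Their limma adjusted p was 0.55, 0.57 and 0.64. Dusp19 was at 8.02, 9.06 and 10.2 RPKM in dnTCF4 and 7.14, 7.32 and 7.43 in WT.

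In the relay that these genes restrain, no listed gene passed the test. Of 17 receptors and adaptors above Ras, 15 were tested, 0 passed and 13 had higher values in dnTCF4 (median log2 difference 0.21), among them the adaptor Gab1 (log2 difference 0.41, limma adjusted p = 0.57). Of 14 Ras genes and regulators, 7 were tested, 0 passed and 6 had higher values (median 0.29). Nras, a Ras GTPase, was at 47.6, 58.0 and 62.5 RPKM in dnTCF4 and 43.8, 43.0 and 44.0 in WT, without overlap (log2 difference 0.35, limma adjusted p = 0.58). Of these 7, 2 had dnTCF4 wholly higher, against 15.4% of all genes tested. Of 13 kinases of the ERK cascade, 10 were tested, 0 passed and 8 had higher values (median 0.20). Of 17 kinases of the JNK and p38 cascades, 13 were tested, 0 passed and 12 had higher values (median 0.23), with the p38 kinase kinase gene Map2k6 at a log2 difference of 0.36 (limma adjusted p = 0.60). These medians stand beside 0.14 for all genes tested, of which 68.5% had higher values in dnTCF4. After median ratio scaling, higher values in dnTCF4 were found for 10 of 15 receptors and adaptors, 5 of 7 Ras genes and regulators, 6 of 10 ERK cascade kinases and 11 of 13 JNK and p38 cascade kinases, against 43.6% of all genes then tested.

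Transcripts that ERK induces were few. Of 13 listed, 3 were tested and 0 passed, with higher values in dnTCF4 for 3, also after median ratio scaling, and a median log2 difference of 0.41 as deposited. Egr1, an early growth response factor, was at 2.71, 2.56 and 1.19 RPKM in dnTCF4 and 0.980, 0.462 and 1.01 in WT, without overlap (log2 difference 0.77, limma adjusted p = 0.39). It was the 1 of these 3 with dnTCF4 wholly higher, against 15.4% of all genes tested. Etv5, an ETS factor downstream of growth factor receptors, overlapped between the groups (log2 difference 0.20, limma adjusted p = 0.77). Of 20 immediate early genes, which also respond to tissue dissociation and sorting, 12 were tested, 0 passed and 11 had higher values in dnTCF4 (median log2 difference 0.61), or 10 of 12 after median ratio scaling (0.41). Jun, a subunit of AP-1, was at 9.80, 9.69 and 7.12 RPKM in dnTCF4 and 4.68, 3.54 and 3.76 in WT (log2 difference 0.98, limma adjusted p = 0.14). Klf4 (log2 difference 0.68, limma adjusted p = 0.19) and Ier2 (0.60, adjusted p = 0.42) had separate groups too. Of the 12, 3 had dnTCF4 wholly higher, against 15.4% of all genes tested. The genes named here are those with the smallest p of the list. Fos, looked at after its values were seen, varied within dnTCF4 more than between genotypes, at 67.2, 118 and 19.3 RPKM in dnTCF4 and 35.7, 30.7 and 19.6 in WT. Dusp1 is itself an immediate early gene, so these values stand beside its own, and the part of cell handling in them was not tested.

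Of 20 other inhibitors of kinase signalling, 14 were tested, 0 passed and 11 had higher values in dnTCF4 (median log2 difference 0.20), or 7 of 14 after median ratio scaling. Rgs1, a regulator that shortens G protein signals, was at 51.8, 93.9 and 51.2 RPKM in dnTCF4 and 36.6, 17.2 and 19.4 in WT (log2 difference 1.41, limma adjusted p = 0.23). Rgs2, of the same family, was at 112, 136 and 115 RPKM in dnTCF4 and 95.6, 54.0 and 71.0 in WT (log2 difference 0.74, limma adjusted p = 0.37). Both had separate groups. Of the 14, 4 had dnTCF4 wholly higher, against 15.4% of all genes tested, and Rgs1 and Rgs2 were named for their small p.

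The tested genes whose log2 values ran most like those of Dusp1 over the 6 libraries were C3 (Pearson r = 0.997), P2rx1 (0.992), Syt11 (0.989), Gm44036 (0.983) and Gm38247 (0.982). C3, complement component 3, was at 12.7, 15.1 and 11.4 RPKM in dnTCF4 and 5.13, 2.89 and 5.51 in WT, the same order of libraries as Dusp1. For Dusp2 they were Gm9493 (0.995), Nfkbid (0.987), Tpst2 (0.974), Klra17 (0.968) and Ptk2b (0.968). They were picked as the closest 5 for each gene over 6 libraries and carry no test.

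Summed levels of some markers of other blood cells differed between the genotypes, although no marker outside the B and plasma cell list passed limma. The 10 neutrophil markers, of which 9 were tested and 7 had higher values in dnTCF4, summed to 3130 to 7557 RPKM in dnTCF4 and 738 to 3201 in WT, with overlap. Of the 10, 7 were highest in dnTCF4 replicate 3, the library with the lowest Dusp10 and the highest Spred1 and Spred2. The same library was highest for 13 of the 17 JNK and p38 cascade genes and 5 of the 8 monocyte and macrophage markers. It was highest for 0 of the 9 T and NK cell markers. The share over all genes was not counted, so the 7 do not set the neutrophil list apart. The 8 monocyte and macrophage markers summed to 2266 to 3229 RPKM in dnTCF4 and 1374 to 1711 in WT, with 5 of 7 tested higher. Erythroblast markers summed to 993 to 1231 RPKM in dnTCF4 and 636 to 686 in WT (5 of 5 tested higher), and megakaryocyte markers to 177 to 195 in dnTCF4 and 91.9 to 116 in WT (4 of 5, or 2 of 5 after median ratio scaling). Single genes carry these sums. The monocyte and macrophage sum rests largely on Lyz2, with a mean of 2262 RPKM in dnTCF4 and 1190 in WT. The erythroblast sum rests largely on Car2, with a mean of 1055 RPKM in dnTCF4 and 638 in WT. The megakaryocyte sum rests largely on Pf4, platelet factor 4, with a mean of 131 RPKM in dnTCF4 and 51.5 in WT, and the list's median log2 difference was 0.10. B and plasma cell markers lay the other way, at 5058 to 11624 RPKM in dnTCF4 and 50583 to 95451 in WT, with 1 of 8 tested higher and 2 called lower by limma, Ighm and Igkc (adjusted p = 0.042 for each). Under 0.1 RPKM in the 6 libraries were Slc4a1 of the erythroblast list, Pax5 of the B cell list and Cdh5 of the endothelial list, and no neutrophil, monocyte or megakaryocyte marker was. The sums of the T and NK cell list (753 to 1175 RPKM in dnTCF4 and 999 to 1250 in WT), the mast cell, basophil and eosinophil list (374 to 493 in dnTCF4 and 321 to 599 in WT), the dendritic cell list (62.7 to 113 in dnTCF4 and 56.1 to 84.5 in WT) and the endothelial and stromal list (36.5 to 43.3 in dnTCF4 and 28.5 to 36.9 in WT) overlapped. Within these 4 lists single genes had separate groups. Mcpt8 and Fcer1a were lower in dnTCF4, 2 of 6 tested in their list against 2.26% of all genes. Cd209a and Klrb1c were higher, each 1 of 5 tested in its list against 15.4%. The T and NK cell sum rests largely on Nkg7 (mean 993 RPKM in dnTCF4 and 1091 in WT), and the endothelial and stromal sum on Pecam1 (34.6 and 31.0). The part of other blood cells in the Dusp1 and Spred values was not tested.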

How the data were processed

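Poly(A) RNA of the 6 samples was made into libraries with SMART-Seq v4 and Nextera XT kits, per the labels' protocols. The authors deposited 1 table of RPKM values. The tools featureCounts, STAR, edgeR and DESeq2 and the genome builds GRCm38 and mm10 are listed per the submitters' processing notes; no roles, versions or annotation are given in the sources used here. Sample descriptions name the column of each sample. RPKM multiplied by GENCODE M21 exon length fell on whole reads, within 0.02 of a read, for 94.0% to 94.7% of genes checked in each library, which gave the depth. Libraries of 1 genotype differed from each other beyond sampling noise.

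Genes averaging 1 RPKM or more were tested with limma 3.58.1 (R 4.3.3) on log2(RPKM + 1) (mean-variance trend, genotype as the only term, two-sided, Benjamini-Hochberg over all genes tested). Fold changes on this scale understate the change of genes near the pseudocount of 1 RPKM. Single values were compared by exact permutation with scipy 1.17.1 under Python 3.11.15. Figures used matplotlib 3.10.9, and tables numpy 2.4.6 and pandas 2.3.3. The limma step was checked on simulated data. The genes and the lists of pathway and cell type genes were chosen with earlier results of these data known. Those named are the 10 genes, their remaining family, up to 4 tested genes with the smallest p of each pathway list, gate genes, up to 2 of each cell type list and the 5 genes most like Dusp1 and Dusp2, of which some are given in counts only. The samples carry replicate numbers in their titles. Deviations of same-numbered libraries correlated at 0.17, 0.35 and 0.30, all above 0.1, and those of differently numbered libraries at -0.33 to 0.09. With 3 libraries per genotype this is weak ground for pairing, so the numbers were tried as a block and left out of the main fit. Promoters were read from a RefSeq table of GRCm38.p6.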

Additional observations from a re-analysis of the deposited data

How the results depend on the processing

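No alternative changed the call of any of the 8 tested genes: 0 passed under the 16 settings tried. The number of genes called among all tested, 34 as reported, was 6 without a filter on low values, 0 with immunoglobulin genes left out (671 at an unadjusted limma p under 0.05), 10 with replicates 2 and 3 only, 86 with library weights, 14 with voom on recovered reads, and 7 to 34 with 1 library left out. With the replicate block, in which same-numbered samples are paired, it was 49, and no call among the brakes changed. The count of brakes with separate groups, 1 as reported, was 2 of 8 with replicates 2 and 3 only (Dusp1 and Dusp2, against 29.0% of all genes with dnTCF4 higher in that setting) and 1 to 4 of 8 with 1 library left out (against 17.1% to 31.8%). The 4 were Dusp1, Dusp6, Spry2 and Spred2, without dnTCF4 replicate 2 (against 24.8%). Fewer libraries separate more easily. It was 0 at a mean of at least 5 RPKM, where Dusp2 alone was tested. The median log2 difference of the tested brakes, 0.21 as reported, was 0.47 at that filter, 0.063 with median ratio scaling, and 0.12 to 0.34 with 1 library left out. Signs turned for Dusp6 under median ratio scaling (-0.076) and quantile scaling (-0.001), for Spry2 under median ratio scaling (-0.048), and for Dusp10 with library weights (0.12) and over the fits with 1 library left out (-0.38 to 0.17). The cause was not tested. Dusp1 had separate groups in each setting that tested it. Leaving out libraries, or changing the filter, pseudocount, block or weights, cannot undo a separation already present. Settings that rescale the libraries could have done so, among them median ratio scaling, quantile scaling and leaving out immunoglobulin genes. With 3 mice a genotype, the 95% intervals of the other 7 genes reach log2 differences between 0.50 and 1.05 upward and between -0.12 and -0.84 downward.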
